A study of Nasonia vitripennis with 6 samples.

Results

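In late blastoderm embryos of the wasp Nasonia vitripennis, 76 of 20033 loci stood higher after knockdown of Toll than in water-injected controls while staying near the control level after knockdown of BMP signalling. They were chosen by their own values, in FPKM (fragments scaled to transcript length and library size). A locus was taken when its mean after Toll pRNAi was above 3 FPKM and at least 1.4 times the water mean, both Toll libraries were above both water libraries, and its mean after BMP pRNAi lay above the water mean divided by 1.5 and at or below 1.2 times that mean. Loci paired with a gene of the study's list of genes with a stained expression pattern were left out, which removed 4. Of the 76 members, 24 could be paired with a gene identifier, each with 1, and 52 carry only the locus name of the table. A pairing was at hand mostly for loci that differed significantly in the deposited run, so the 24 are not a random sample of the 76.

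Toll is a transmembrane receptor. In insect embryos its signal sends the transcription factor Dorsal into nuclei on the ventral side, where Dorsal switches on mesoderm genes such as twist and snail and represses genes of more dorsal fates in the fly. Dpp and Gbb are BMP ligands. In the fly embryo BMP signalling acts mainly on the dorsal side, where it specifies extraembryonic and dorsal ectodermal tissue. For Nasonia the study describes a wider role, with BMP signalling as the main patterning input beyond the mesoderm and Toll limited to the ventral side.

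RNA was sequenced from pooled embryos aged 4 to 7 h at 28 °C. The mothers had been injected as yellow pupae (parental RNA interference, pRNAi) with water in 2 libraries, with Toll dsRNA in 2 and with dsRNA against a BMP ligand in 2, of which 1 received gbb1 and 1 dpp dsRNA. The Toll libraries came from separate dsRNAs of non-overlapping parts of Nv-TollA, and the BMP group has 1 library per ligand, so a difference between dpp and gbb has no replicate. Each pool joined embryos of several days of collection, and in such bulk RNA more cells expressing a gene and more RNA per cell cannot be told apart. Total fragments per library ran from 22754267 to 30590172.

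The targeted gene checked the label of the Toll libraries, and it does not tell the BMP libraries from water. Nv-TollA (Nasvi2EG005329) stood at 4.92 and 1.23 FPKM in the Toll libraries (replicates 1 and 2), against 101.0 and 128 in water and 101 and 110.0 after gbb and dpp pRNAi. The mesoderm gene twist (Nasvi2EG000292) fell by 4.20 ± 0.26 (SE, 2 libraries per group) on the log2 scale after Toll pRNAi, snail (Nasvi2EG019581) fell by 0.97 ± 0.13 and the mesectoderm gene sim (Nasvi2EG014230) fell by 2.52 ± 0.14, with edgeR adjusted p of 0.000269, 0.0145 and 0.000141. The serosa gene zen (Nasvi2EG011090) was at 37.2 and 31.6 FPKM after Toll pRNAi and at 28.9 and 31.1 in water. This difference did not pass the test (edgeR adjusted p = 0.33). The other serosa gene checked, dorsocross (Nasvi2EG003929), rose after Toll pRNAi to 35.1 and 36.2 FPKM from 23.6 and 27.0. The rise was 0.52 ± 0.10 on the log2 scale (edgeR adjusted p = 0.033). After gbb and dpp pRNAi zen was at 4.01 and 5.36 FPKM and dorsocross at 12.4 and 10.7, below both water libraries.

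Most members differed from water by a modest factor. The ratio of the Toll mean to the water mean had a median of 1.48 over the 76 and reached 2.29 from just above the limit, and 44 of the 76 were under 1.5. In the fragment counts the members' log2 fold change had a median of 0.58 for Toll pRNAi against water and of -0.03 for BMP pRNAi against water, beside 0.02 and 0.01 over all 10241 loci tested. These values restate the choice and were not tested as a group. By Toll level, 7 members were above 100 FPKM, 32 between 20 and 100 and 37 between 3 and 20, and the median ratio was nearly the same in these tiers, at 1.48, 1.499 and 1.48.

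**Figure D1:**
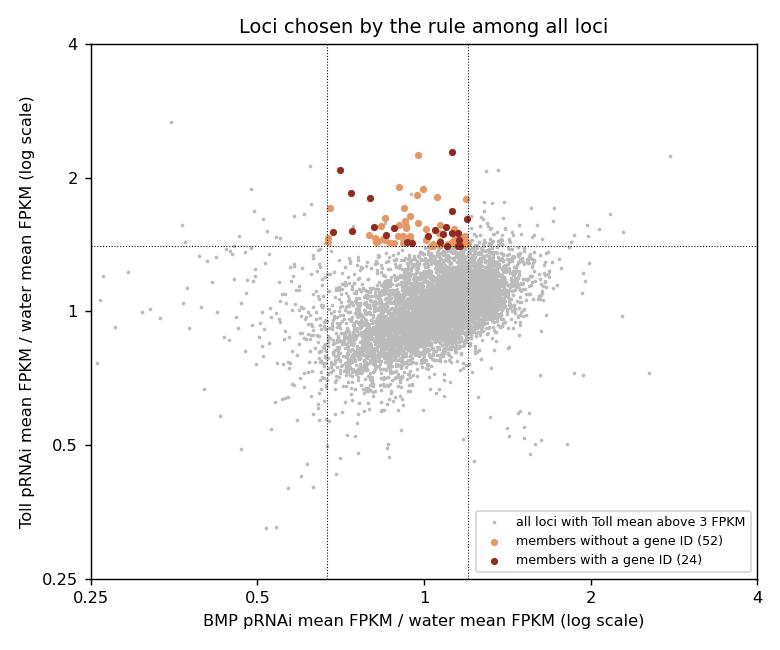
Each point is 1 locus, placed by its mean FPKM after BMP pRNAi (horizontal) and after Toll pRNAi (vertical), both as a ratio to the water mean on log axes. Grey points are loci with a Toll mean above 3 FPKM, coloured points the 76 members, and dotted lines the limits of the rule. Most members lie just above the 1.4 line, in the upper edge of the grey cloud, and 3 have a ratio of 2 or more. A further 19 loci fall outside the axes.

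Library by library, the Toll pRNAi libraries carried the shift to unequal degrees. Relative to the water mean of each locus, the median of the members was 1.54 in Toll replicate 1, 1.43 in Toll replicate 2 and 1.01 in both the gbb and the dpp library. Replicate 1 had the higher value in 56 of 76 members. The members' median log2 ratio of replicate 1 to replicate 2 was 0.10, against 0.01 over 7628 loci above 1 FPKM in every group. More Toll RNA was left in replicate 1, and any bearing of this on the members' values was not tested. Toll replicate 1 alone was at or above 1.4 times the water mean in 71 members, replicate 2 in 48, and both were in 43. The pair was nonetheless close, since 61 members had Toll libraries within 1.2 times of each other and 2 had them over 1.5 times apart.

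**Figure D2:**
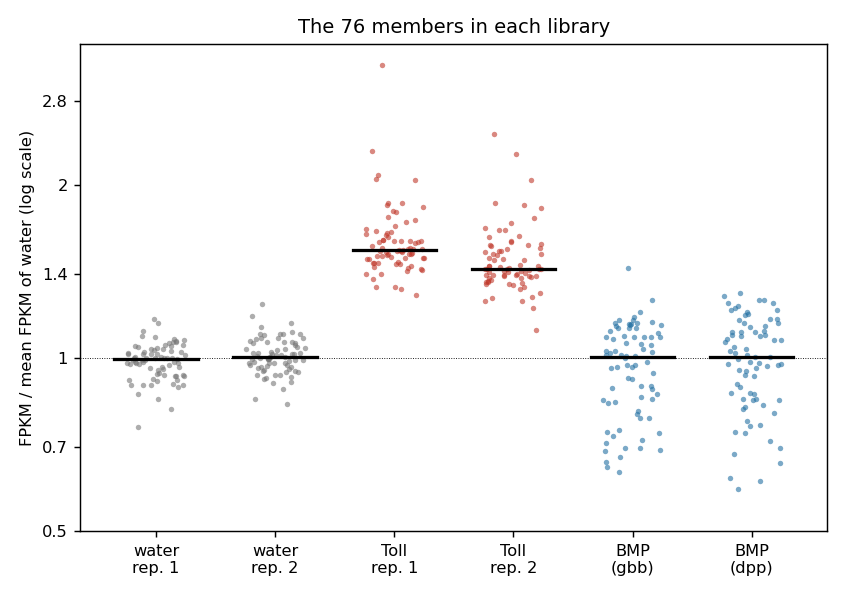
FPKM of each of the 76 members (points) in the 6 libraries, divided by the mean of the water libraries of that locus and drawn on a log axis, with the median as a black bar. The medians sit at 1.54 and 1.43 in the Toll libraries and at 1.01 in each BMP library, where the points spread to both sides of 1.

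The comparison of Toll with BMP pRNAi was not named in the rule, but its limits force the Toll mean above the BMP mean, so what follows is a description. In 75 of 76 members both Toll libraries were above both BMP libraries, against 24.1% of the 6740 loci above 3 FPKM after Toll pRNAi. The Toll mean was 1.18 to 2.95 times the BMP mean, with a median of 1.55. In the pairs that share a title number, Toll replicate 1 exceeded dpp in all 76 members and Toll replicate 2 exceeded gbb in 75. The lack of overlap already fixes this order in 75 members, so these counts add no support.

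By edgeR's quasi-likelihood test across all loci (adjusted p under 0.05), 44 of the 76 members were higher after Toll pRNAi than in water, where 2.60% of all loci tested were. Against BMP pRNAi 51 were higher, where 5.83% of all loci were, none was lower, where 1.06% were, and 37 were higher in both comparisons, where 1.18% were. Between BMP pRNAi and water 1 member differed, Nasvi2EG016549, where 5.55% of all loci did, and it was lower after BMP pRNAi. The members were selected on these same libraries, so nothing is read from the counts. With 1 library left out, the remaining library of its group is assumed to vary like the other groups. The counts above rest on all 6 libraries, and calls of fits without a library are not given. In such fits the members' median log2 fold change of Toll pRNAi against water stayed between 0.53 and 0.62. Of the paired members 20 of 24 were called against water, and of the others 24 of 52. A pairing was at hand mostly for loci significant in the deposited run of these libraries, so nothing is read from this contrast. The unpaired members also had lower levels, with a median Toll mean of 10.6 FPKM against 48.9.

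The member with the highest ratio was also the least even one. Nasvi2EG005321, on scaffold 8 at 699223 to 706346 of assembly 1.0, had 40.1 FPKM in Toll replicate 1 and 16.7 in replicate 2, against 12.6 and 12.2 in water, 17.8 after gbb pRNAi and 10.1 after dpp pRNAi. Its ratio of 2.29 came largely from Toll replicate 1, and it was the 1 member whose Toll and BMP libraries overlapped, since the gbb library lay above Toll replicate 2. The libraries of both groups were apart by large factors, 2.40 between the Toll replicates and 1.76 between gbb and dpp, and its log2 fold change against water of 1.14 carried an SE of 0.39. It lies 33799 bp from Nv-TollA, whose locus spans 740146 to 745386 of the same scaffold, and no other paired member lies on that scaffold. This position was noticed after the values were seen, and any part of it in the values was not tested.

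The next paired members by ratio were of low level. Nasvi2EG015069 (scaffold 48, 46415 to 52671) had 4.69 and 3.80 FPKM after Toll pRNAi, 2.06 and 2.03 in water and 1.41 and 1.47 after gbb and dpp pRNAi. Its Toll to BMP ratio of 2.95 was the largest of all members. Nasvi2EG004073 (scaffold 5, 4542344 to 4545458) had 7.67 and 7.52 FPKM after Toll pRNAi, 3.69 and 4.53 in water and 2.93 and 3.14 in the BMP libraries. Nasvi2EG021819 (scaffold 153, 158140 to 167503) had 4.12 and 4.32 after Toll pRNAi, 2.21 and 2.47 in water and 1.63 and 2.11 in the BMP libraries. In each of these 3 genes the Toll libraries were well clear of the other 4, and both BMP libraries were below both water libraries. Their log2 fold changes against water were 1.04 ± 0.15, 0.90 ± 0.14 and 0.81 ± 0.12 (SE).

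Among unpaired loci the largest ratios belonged to XLOC_016534, with 2.81 and 3.38 FPKM after Toll pRNAi, 1.24 and 1.52 in water and 1.10 and 1.59 in the BMP libraries, and to XLOC_013562. The latter had 3.54 and 5.17 FPKM after Toll pRNAi, 2.41 and 2.16 in water and 2.61 and 1.502 in the BMP libraries. For both, the ratio rests on a level near the floor of 3 FPKM.

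Evenness varied among genes of intermediate level, and Nasvi2EG009557 was the steadiest of those that follow. Nasvi2EG009557 (scaffold 18, 2223633 to 2230242) had 25.1 and 25.3 FPKM after Toll pRNAi, 16.2 and 16.8 in water and 17.4 and 17.1 in the BMP libraries, a ratio of 1.53 to water and of 1.05 for BMP to water. Nasvi2EG005855 (scaffold 9, 2013722 to 2049681) had 31.9 and 27.9 FPKM after Toll pRNAi, 17.8 and 17.7 in water and 18.8 and 21.1 in the BMP libraries. Nasvi2EG005048 (scaffold 7, 2618708 to 2619895) had 24.98 and 25.5 after Toll pRNAi, 14.4 and 16.9 in water and 17.0 and 20.3 in the BMP libraries. For these genes the Toll libraries were clear of every other library. The BMP libraries were above the water libraries, without passing the test, and over the 7628 loci above 1 FPKM in every group the FPKM of BMP pRNAi had a median log2 ratio to water of 0.07. Nasvi2EG031236 (scaffold 768, 12996 to 16651) went the other way in BMP embryos, with 15.6 and 14.0 FPKM there, 18.3 and 18.2 in water and 30.1 and 26.4 after Toll pRNAi.

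Of the 5 paired members above 100 FPKM, 4 had small differences that were even between the replicates, and Nasvi2EG022729 was uneven. Nasvi2EG007426 (scaffold 13, 801347 to 988867) had 728 and 727 FPKM after Toll pRNAi, 505 and 470.4 in water and 531 and 526 in the BMP libraries. Its ratio to water was 1.49, and its locus spans 187521 bp, against at most 35960 bp in the other paired members. Nasvi2EG037033 (scaffold 7, 820630 to 821690) had 164 and 152 FPKM after Toll pRNAi, 108 and 112 in water and 97.5 and 107 in the BMP libraries. Nasvi2EG009086 (scaffold 17, 901962 to 902923) had 120 and 112 after Toll pRNAi, 76.7 and 80.0 in water and 75.7 and 83.7 in the BMP libraries, and Nasvi2EG020641 (scaffold 127, 722474 to 725985) had 110.0 and 126, 84.2 and 81.2, and 74.0 and 83.3 FPKM in the same order. In all 4 the Toll libraries stood apart from the others while the BMP and water libraries ran close together or overlapped. Nasvi2EG007426 and 1 unpaired locus at 729.6 FPKM made up 39.1% of the members' summed Toll level of 3722 FPKM.

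**Figure D3:**
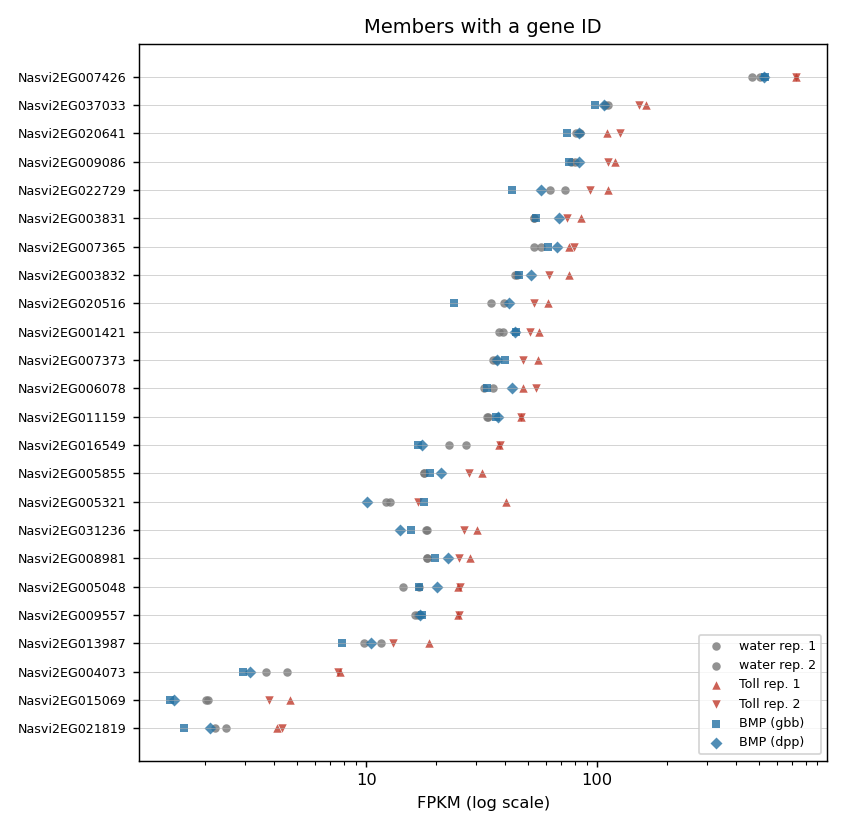
FPKM on a log axis of the 24 members with a gene identifier, ordered by their Toll mean, with 1 point per library. The Toll points (triangles) lie right of the water points (circles) in every row, as the rule required, and right of the BMP points (square, gbb; diamond, dpp) in all rows but that of Nasvi2EG005321.

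The rule kept every member near control after BMP pRNAi, and within its band they lay on both sides of water. Both BMP libraries were below both water libraries in 19 members, where 25.5% of the loci above 3 FPKM were, above them in 21, where 41.1% were, and overlapped with them in 36, where 33.4% did. The Toll to water ratio was alike in the 3 sets, with medians of 1.48, 1.47 and 1.48, while the Toll to BMP ratio was 1.91 in the first, 1.27 in the second and 1.59 in the third. These sets follow from the members' own BMP values, so the last figures are a description. The members below control were also of lower level, with a median Toll mean of 7.78 FPKM against 42.3 for those above.

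The lowest BMP to water ratio of a paired member was 0.69, in Nasvi2EG016549 (scaffold 62, 589027 to 593287). It had 37.7 and 37.8 FPKM after Toll pRNAi, 22.8 and 27.1 in water and 16.8 and 17.4 after gbb and dpp pRNAi, 3 levels without overlap. Nasvi2EG022729 (scaffold 176, 184226 to 188121) had the same order, with 112 and 92.8 FPKM after Toll pRNAi, 72.3 and 62.3 in water and 42.6 and 57.2 after gbb and dpp pRNAi, and a wider spread within the Toll and the BMP group. At the other end, Nasvi2EG005048 had a BMP to water ratio of 1.19, Nasvi2EG007365 of 1.16, Nasvi2EG008981 of 1.16, Nasvi2EG001421 of 1.15 and Nasvi2EG003831 of 1.15. In Nasvi2EG008981 (scaffold 16, 3872309 to 3875101), for example, the order was water (18.4 and 18.4 FPKM), BMP pRNAi (19.9 and 22.7) and Toll pRNAi (28.1 and 25.2). A member of this kind was above water in all 4 knockdown libraries, and its place here rests on the size of the BMP difference.

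Within groups a few genes were uneven. Nasvi2EG013987 (scaffold 40, 943971 to 946284) had 18.6 and 13.1 FPKM after Toll pRNAi, 9.81 and 11.6 in water and 7.84 and 10.5 in the BMP libraries, so Toll replicate 2 was only just above the higher water library. Nasvi2EG020516 (scaffold 127, 235 to 2582) had 24.1 FPKM after gbb and 41.5 after dpp pRNAi, a factor of 1.72, beside 34.8 and 39.6 in water and 61.3 and 53.4 after Toll pRNAi. With Nasvi2EG005321 and Nasvi2EG022729, these were the 4 paired members not called against water. Over all members the absolute log2 difference had a median of 0.13 between the Toll libraries, 0.18 between gbb and dpp and 0.13 between the water libraries, against 0.08, 0.16 and 0.11 over the 7628 loci above 1 FPKM in every group.

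**Figure D4:**
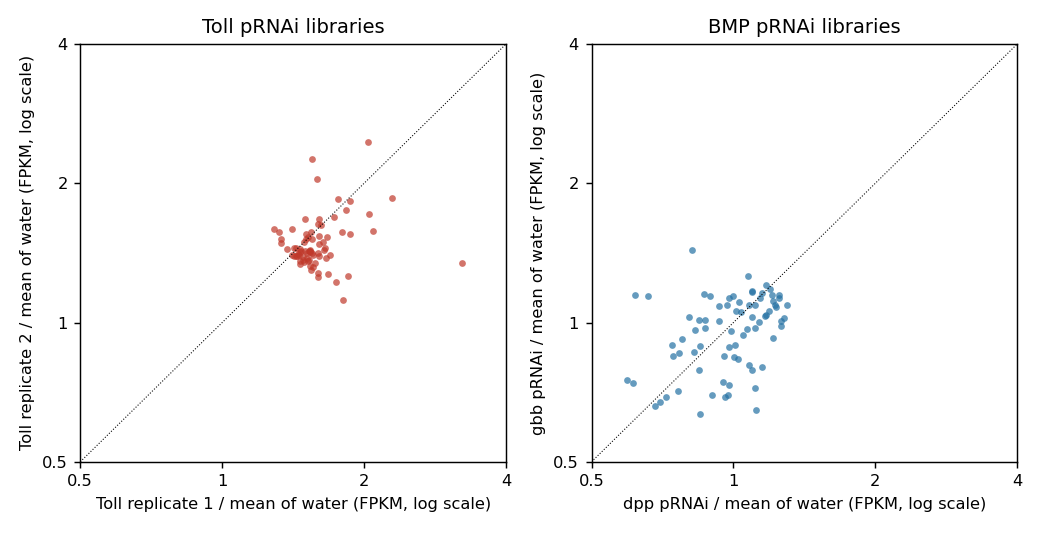
The 76 members by their ratio to the water mean in Toll replicate 1 and 2 (left) and in the dpp and gbb libraries (right), on log axes with a dotted line of equality. Left, most points sit between 1.3 and 1.9 on both axes, below the line more often than above it, and Nasvi2EG005321 lies alone at 3.23 on the horizontal axis. Right, the points scatter around 1.

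The 24 paired members lay on 17 scaffolds, and pairs of them lay within 50 kb of each other at 2 places. Nasvi2EG003831 (2253197 to 2254230) and Nasvi2EG003832 (2254289 to 2255350) are 58 bp apart on scaffold 5. The former had 85.4 and 74.1 FPKM after Toll pRNAi, 53.2 and 53.2 in water and 54.4 and 68.2 after gbb and dpp pRNAi, and the latter had 75.3 and 62.0, 44.9 and 43.9, and 45.8 and 51.8. The neighbours thus shared their order in every library pair, with Toll replicate 1 above replicate 2 and dpp above gbb. The library kit does not mark strand, so fragments at the border of such close loci cannot be assigned with certainty. The other pair is Nasvi2EG007365 (329401 to 332739) and Nasvi2EG007373 (358481 to 362796), 25741 bp apart on scaffold 13. The first had 75.5 and 79.4 FPKM after Toll pRNAi, 53.1 and 57.0 in water and 61.3 and 66.9 in the BMP libraries. The second had 55.3 and 47.8, 35.5 and 36.5, and 39.9 and 37.0, so that the stronger Toll replicate was not the same in these neighbours.

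Transcript length was not itself a limit of the rule, but FPKM is scaled by it, so it enters the floor of 3 FPKM. The number of water fragments per FPKM follows transcript length, and relative to the median locus above 3 FPKM it had a median of 0.93 and quartiles of 0.49 and 1.29 in the members, against quartiles of 0.56 and 1.69 over all 6740 such loci. The members' median level in water, which enters the ratios of the rule, was 13.3 FPKM, beside 24.5 for those loci. No fly ortholog, product or stained pattern was at hand for any of the 24 gene identifiers, so no role can be given to them here. A stain had been tried for Nasvi2EG004073, Nasvi2EG013987, Nasvi2EG020516 and Nasvi2EG021819, and no pattern was found.

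The limits of the rule cut through a continuum. Just inside the Toll limit were Nasvi2EG001421 (scaffold 2, 1665488 to 1668822), with 56.1 and 51.4 FPKM after Toll pRNAi and 39.1 and 37.6 in water, a ratio of 1.4002, and Nasvi2EG011159 at 1.401. Just outside were Nasvi2EG012617 at 1.392, with 82.9 and 78.9 against 56.2 and 60.1 FPKM, and Nasvi2EG021021 at 1.390. At the upper BMP limit of 1.2, Nasvi2EG005048 at 1.19 and Nasvi2EG007365 at 1.16 were inside, and Nasvi2EG007411 and Nasvi2EG021047, both at 1.21, outside. At the lower limit, Nasvi2EG016549 at 0.69 and Nasvi2EG015069 at 0.70 were inside, and Nasvi2EG008982 at 0.61 and Nasvi2EG000285 at 0.54 outside. At the level limit the nearest paired members were Nasvi2EG021819 and Nasvi2EG015069, at Toll means of 4.22 and 4.25 FPKM, and the nearest paired loci outside, Nasvi2EG019809 and the joint locus of Nasvi2EG000725 and Nasvi2EG000726, stood at 0.42 and 0.33 FPKM. In all, 176 loci met the Toll side of the rule, of which 76 were above 1.2 times water after BMP pRNAi and 20 at or below the water mean divided by 1.5. The same rule with Toll and BMP exchanged took 146 loci.

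Of the 4 loci removed for their pairing, 1 is listed as serosal and 3 as broadly lateral. The serosal one is wee1 (Nasvi2EG000593), a kinase that holds cells before mitosis, with 24.5 and 28.2 FPKM after Toll pRNAi, 15.5 and 17.8 in water and 12.7 and 15.6 after gbb and dpp pRNAi. The locus of sox neuro (Nasvi2EG001588), a transcription factor of the early nervous system in the fly, had 80.5 and 65.9 FPKM after Toll pRNAi, 50.7 and 48.8 in water and 39.1 and 27.9 in the BMP libraries, and it joins several gene identifiers. The ankyrin-domain genes Nasvi2EG001954 and Nasvi2EG005791 had Toll to water ratios of 1.84 and 1.45.

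The study's own lists of stained genes, which it chose on these libraries and which are therefore no independent evidence, moved with the knockdowns as follows. Of the ventral list 17 of 19 loci were lower after Toll pRNAi than in water, where 1.03% of all loci were. The summed level of the list was 89.8 and 85.5 FPKM in the Toll libraries against 263 and 258 in water. After BMP pRNAi 8 of the 19 were higher than water, where 2.06% of all loci were, and 2 were lower, where 3.49% were. Of the broadly lateral list 5 of 22 loci were higher than water in Toll embryos, where 2.60% of all loci were, and 1 was lower. In BMP embryos 15 were lower than water (3.49% of all loci) and 1 was higher. The sum of this list was 820 and 789 FPKM after Toll pRNAi, 629.8 and 647 in water and 428 and 361 after gbb and dpp pRNAi. Of the serosal list 4 of 27 loci were higher in Toll embryos and 25 were lower in BMP embryos, with sums of 1078 and 1008, 902 and 902, and 365 and 331 FPKM. Of the dorsolateral list 4 of 8 loci were higher in Toll embryos and all 8 were lower in BMP embryos, with sums of 86.9 and 84.4, 62.1 and 60.8, and 17.8 and 20.5 FPKM. Of the ventrolateral list 3 of 5 loci were lower in Toll embryos and 3 were higher in BMP embryos. All 10 loci of the anteroposterior list were lower in BMP embryos, and in Toll embryos 1 was higher and 1 lower. None of the 4 germline loci was called in either. The lists of 2 or 3 loci are left out here. The 76 members, by comparison, summed to 3813 and 3630 FPKM after Toll pRNAi, 2534 and 2481 in water and 2559 and 2647 in the BMP libraries. Loci of the broadly lateral, serosal and dorsolateral lists changed mostly in BMP embryos, where the members by their choice stayed near control. Any part of the loss of ventral or gain of lateral tissue in the members' values was not tested.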

How the data were processed

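Poly-A RNA of 6 embryo pools was sequenced. The authors aligned reads to assembly 1.0 using TopHat2 2.0.3 and annotation 2.0, and Cuffdiff 2.0.2 compared the 3 conditions. The deposited table gives the expected count of fragments of a locus in a library, with multiply mapping fragments divided, and the authors' FPKM, which Cuffdiff scales for library size and transcript length. Replicates in the table were matched to libraries by their order in the authors' command, and 0 columns stayed unmatched. A table of fitted counts per condition was not used. A part of the authors' table of differences served only to pair 1799 loci with gene identifiers and coordinates, and its fold changes and p-values were not used.

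The members and lists were chosen with earlier results of these data known. The rule was applied to mean FPKM over 2 libraries per group. The rounded expected counts entered edgeR 4.0.16 in R 4.3.3 (TMM, default low-count filter, all 6 libraries, Benjamini-Hochberg within a comparison, threshold 0.05), which kept 10241 loci and all 76 members. SE was taken as the size of the log2 fold change over the root of F. The fits were tested on simulated data. Replicates are separate pools, and the p-values of every comparison measure the spread within groups, estimated over all 6 libraries together. In the BMP group this spread includes the difference between gbb and dpp pRNAi, and in the Toll group that between separate dsRNAs. The spread exceeded sampling noise in each group, with a chi-square per degree of freedom of 16.6 in water, 5.03 in Toll and 42.5 in BMP pRNAi. Paired members were named when among the 10 with the largest ratio or the highest level, the 5 highest or lowest after BMP pRNAi, the 3 most uneven between libraries of a group or between FPKM and fragments, or within 50 kb of another. Nasvi2EG006078 and Nasvi2EG011159 met none of these, and the latter is named as a locus at a limit. Up to 2 unpaired loci with the largest ratio and the 2 paired loci nearest each limit were added. For 1 unpaired member Cuffdiff marked its estimate as failed in 2 libraries, and its values were kept. Alternatives were DESeq2 1.42.0, RLE factors, other filters, limma 3.58.1 on log2 FPKM with pseudocounts of 1 and 0.1, fits of only the groups compared, a block by title number, other limits of the rule, and each library left out.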

Additional observations from a re-analysis of the deposited data

How the results depend on the processing

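The count of members came to 69 when the rule was read on TMM-scaled fragments, with 61 in common with the 76, to 63 with a BMP band of 1.2 times to both sides and to 32 with a Toll limit of 1.5 times. Leaving out a library gave 71 to 117 members, the 117 without Toll replicate 2. In common with the 76 were 48 without Toll replicate 1, 49 without water replicate 2, 55 without water replicate 1, 61 without the gbb library and 70 without Toll replicate 2 or the dpp library. The counts of members called moved largely with the number of loci a fit called, so they do not measure the members alone. The main fit called 266 of 10241 loci higher after Toll pRNAi than in water and 597 higher than after BMP pRNAi. Members higher after Toll pRNAi than in water numbered 2 with limma on log2(FPKM + 1) over all loci without a filter. Those higher than after BMP pRNAi numbered 3. This fit called only 33 and 76 of 20033 loci higher. With a pseudocount of 0.1 and a filter, the counts of members were 40 and 41, beside 227 and 304 of all 7843 loci. The other settings that kept all 6 libraries gave 42 to 63 against water and 53 to 59 against BMP pRNAi. The lower ends came with RLE factors, where 232 and 582 of 10241 loci were called higher. The upper ends came without a filter, where 533 and 1036 of 16596 were. Fits of only the 2 groups compared called 723 of 9946 and 401 of 10054 loci higher, and the counts of members were 57 and 42. Leaving out a library gave 0 to 57 and 17 to 51. The BMP to water count of 1 became 4 with DESeq2, 7 without a filter, 0 with only the 2 groups compared, 0 with limma on log2(FPKM + 1) and 0 to 10 without a library, the 10 without the gbb library. Under RLE factors, mean FPKM and each library left out, the members' median log2 fold change ran from 0.53 to 0.62 for Toll pRNAi against water, from 0.60 to 0.69 against BMP pRNAi and from -0.05 to -0.0015 for BMP pRNAi against water. Title numbers pair each Toll library with a BMP library. Over 6216 loci the difference of Toll replicate 1 from replicate 2 correlated at 0.13 with that of dpp from gbb. The labels do not say what the numbers mark. With that replicate block, fitted on the Toll and BMP libraries alone, 63 members and 1005 of 10054 loci were higher in Toll than in BMP embryos, against 42 and 401 in the same groups without it. With 2 libraries per group the spread of a single locus is poorly known, and members with few fragments, down to 42.7 in a library, are the least certain. The 37 members under 20 FPKM had a median of 159 fragments in their lowest library. The 32 members between 20 and 100 FPKM had a median of 1060.5 there, but some of these were low too, down to 108.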
